A study of Mus musculus with 7 samples.

Results

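The genes described here are 2 neurotrophin ligands and 4 of their receptors, Bdnf, Ntf3, Ntrk2, Ntrk3, Ngfr and Sort1, picked by symbol from count tables that list 23413 genes. All 6 were found, and all 6 passed the filter on low counts that left 15881 genes to test. RNA was taken from the cortex of 7 APP/PS1 mice, which carry transgenes for mutant human APP (APPswe) and presenilin 1 (PSEN1dE9), and no wild-type library was among these samples. At 6 months of age the mice were put on either a control diet (CD, which the sample labels call SD) or a ketogenic diet (KD), and tissue was taken at 13 months. CD provided 74% of its energy as carbohydrate, 16% as fat and 10% as protein, and KD provided less than 0.5% as carbohydrate, 90% as fat and 10% as protein. There were 4 CD libraries and 3 KD libraries, each from 1 mouse. The question was whether transcripts of the neurotrophin system differed in KD vs. CD cortex. The study measured phosphorylated ERK, phosphorylated CREB and BDNF in hippocampus, a tissue not covered by these libraries.

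Neurotrophins are secreted growth factors that support survival of neurons, growth of their processes and strengthening of synapses. Each is made as a proneurotrophin and cut to a mature form. Mature BDNF, the product of Bdnf, binds TrkB (Ntrk2), and neurotrophin-3, the product of Ntf3, binds mainly TrkC (Ntrk3). Both Trk proteins are receptor tyrosine kinases that signal through the Ras–ERK, PI3K–Akt and phospholipase C pathways. The p75 neurotrophin receptor (Ngfr) binds every neurotrophin and, together with sortilin (Sort1), binds the uncut proforms. In cortex, BDNF is made mostly by excitatory neurons and its transcription follows neuronal activity, while TrkB is found in neurons in full-length form and in astrocytes as a truncated form without the kinase.

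Bdnf transcription starts at several separate first exons, and the start best known for its response to activity and to CREB is shown because ERK, CREB and BDNF were measured in the study. The RefSeq promoter table for GRCm38.p6 (the mm10 assembly) held 7 Bdnf starts. The 250 bases before each were searched for the letters ACGTCA, the core of a cAMP response element, on both strands (ACGTCA or TGACGT). Of the 7 windows 1 held a match, at chr2:109692186-109692435 on the plus strand, from base -36 to base -31 before the start. The match is in capitals:
Bdnf: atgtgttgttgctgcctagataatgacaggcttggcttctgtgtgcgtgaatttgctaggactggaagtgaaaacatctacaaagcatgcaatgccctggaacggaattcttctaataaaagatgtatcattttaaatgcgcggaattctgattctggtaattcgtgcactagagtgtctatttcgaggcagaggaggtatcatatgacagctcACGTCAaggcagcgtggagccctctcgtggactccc
Of 32851 promoter windows of the same length, 6.47% held these letters. The full palindrome TGACGTCA, which contains them, was in 1.55% of all windows and in none of the 7. The windows of Ntf3 (2 starts), Ntrk2 (1) and Ngfr (1) held no match, and Ntrk3 and Sort1 were not in the table. The count tables give 1 value per gene, so the use of each Bdnf start was not measured.

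Library totals ranged from 22272883 to 36614954 counts, with KD replicates 1 and 3 the shallowest. Against the other CD libraries, CD replicate 4 had higher sums of the meningeal, olfactory bulb and hippocampal marker lists. In the hippocampal list this was mostly through Wfs1, and Prox1 was not higher. KD replicate 3 had higher sums of the same 3 lists than the other KD libraries, mostly through 1 gene of each list (Dcn, Cdhr1 and Wfs1). CPM are counts per 1000000 counts of the library. Excitatory neuron markers of cortex were present in all 7 libraries, with a summed level of 1350 to 1982 CPM over the 8 genes of the list. By the quasi-likelihood test of edgeR, 51 of all tested genes, or 0.321%, reached the raw threshold of 0.01 in KD vs. CD, and 506, or 3.19%, had a raw p under 0.05. After Benjamini-Hochberg adjustment 0 genes were left under 0.05. Of the other tools, the likelihood-ratio test of edgeR left 1 gene there, DESeq2 0 and limma-voom 0.

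None of the 6 genes differed between KD and CD beyond the spread between mice. Bdnf, Ntf3, Ntrk2 and Ntrk3 had a higher fitted level in KD and Ngfr and Sort1 a lower one, and the smallest raw p-value was 0.232, for Sort1. The KD and CD ranges overlapped for all 6, while over all tested genes 4.2% had ranges that did not overlap. Log2 fold changes, KD minus CD, are given below with their standard error and 95% interval from edgeR's quasi-likelihood fit. An interval that contains 0 also contains every other value within it.

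**Figure D1:**
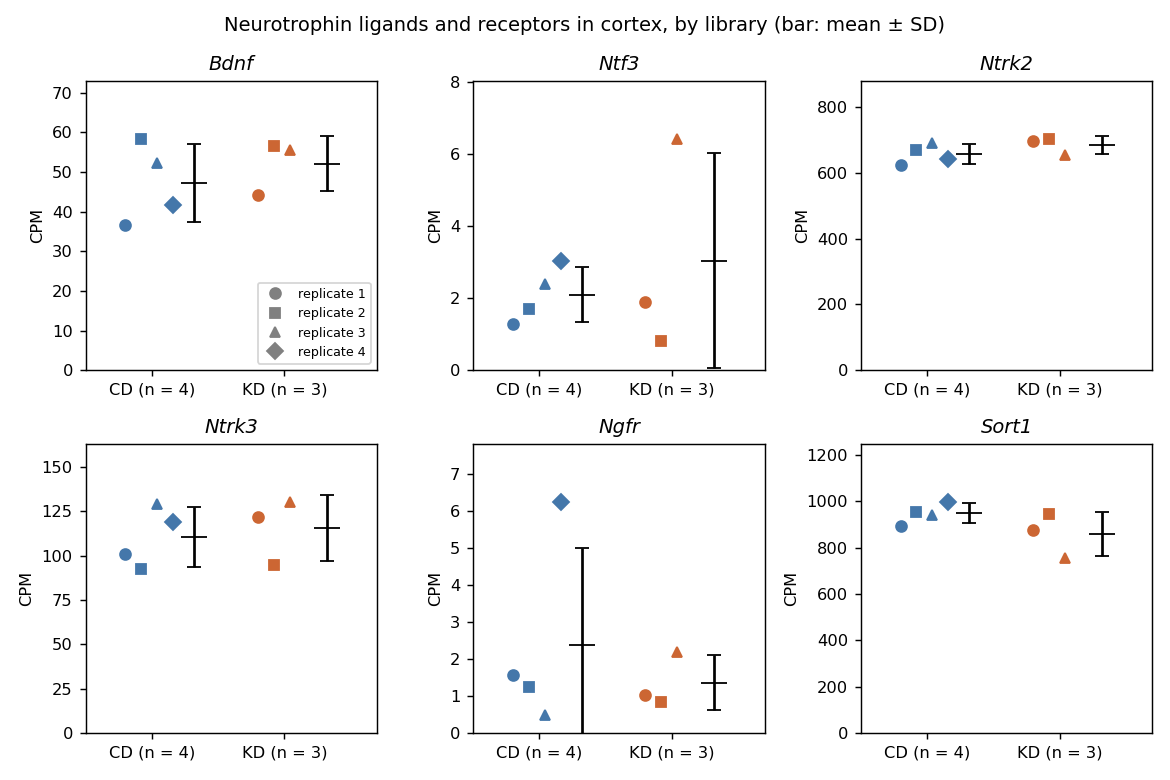
Counts per 1000000 (CPM, linear axes from 0) of the 6 genes in each library, with CD in blue, KD in orange and a marker shape for each replicate number, and the mean and SD of each diet beside the points (the lower end of the SD bar of Ngfr in CD lies below 0 and is not drawn). The diets overlap in every panel, and single libraries stand out for Ntf3 (KD replicate 3, 6.42 CPM) and Ngfr (CD replicate 4, 6.25 CPM).

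Per kilobase of annotated exon, the 6 genes spanned a wide range of levels. Sort1 was the most abundant, at 120.1 ± 10.4 CPM per kb (SD, n = 7), followed by Ntrk2 at 34.6 ± 1.55, Bdnf at 7.93 ± 1.36, Ntrk3 at 3.74 ± 0.539, Ntf3 at 1.46 ± 1.09 and Ngfr at 0.564 ± 0.574 CPM per kb (SD, n = 7 each). The ranges over libraries of Sort1, Ntrk2 and Bdnf did not overlap with that of the next gene in the order. Those of Ntrk3 and Ntf3 overlapped, as did those of Ntf3 and Ngfr. The order was the same in 6 of 7 libraries, the exception being CD replicate 4, where Ngfr was above Ntf3. TrkB transcripts exceeded TrkC transcripts in all 7 libraries, with a ratio of the per-kilobase levels from 7.82 to 11.6. With the longest transcript as gene length the order was the same. Ntrk2 was then at 76.4 and Ntrk3 at 5.73 CPM per kb, so the size of the ratio depends on the length used.

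Bdnf lies on chromosome 2 from 109674700 to 109727007 on the plus strand of mm10, and its 11 annotated transcripts are all protein coding. In CD it had 36.5, 58.4, 52.3 and 41.7 CPM in replicates 1 to 4, and in KD 44.1, 56.6 and 55.5 CPM in replicates 1 to 3. All 3 KD values lay inside the CD range, since the lowest and the highest library were both CD. The KD mean was 52.1 ± 6.90 CPM (SD, n = 3) and the CD mean 47.2 ± 9.91 CPM (SD, n = 4). On the log2 scale KD exceeded CD by 0.15 (standard error 0.18), with a 95% interval from -0.26 to 0.56, which spans 0.834-fold to 1.47-fold. The adjusted p was 0.981 (edgeR, quasi-likelihood), and p was 0.457 in the exact two-sided permutation test of log2(CPM + 0.5), where the smallest value that the 35 splits allow is 0.0286. Counts of Bdnf ran from 1032 to 1927, so counting error was small beside the spread between mice. An antisense gene, Gm45346, shares 896 bases of exon with Bdnf on the other strand. The strand setting of the counting is not given in the sources used here, and reads from the pair cannot be told apart without it.

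The labels do not give the sex of the mice. Males and females both took part in the study, which measured BDNF protein in each. Xist, the RNA that coats the inactive X chromosome of female cells, was at 242 to 526 CPM in CD replicates 1 and 2 and KD replicates 1 and 2, and at 0.314 to 3.08 CPM in CD replicates 3 and 4 and KD replicate 3. Ddx3y, a gene of the Y chromosome, was at 301 to 346 CPM in the libraries low in Xist. In the libraries high in Xist it was at 0.0428 to 0.301 CPM. In the libraries high in Xist, Bdnf was at 36.5 and 58.4 CPM in CD and at 44.1 and 56.6 CPM in KD. In the libraries low in Xist, it was at 52.3 and 41.7 CPM in CD and at 55.5 CPM in KD. With at most 2 libraries of a diet on either side, no test was made within them. When log2 CPM of Xist was added to the fit over all 7 libraries, none of the 6 genes had a raw p under 0.05 and the log2 fold change of Bdnf was 0.15.

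Ntf3, on the minus strand of chromosome 6 from 126101412 to 126166910, was low and the more variable of the 2 ligands. It had 1.28, 1.71, 2.38 and 3.03 CPM in CD replicates 1 to 4, and 1.88, 0.823 and 6.42 CPM in KD replicates 1 to 3, from 28 to 143 counts. KD thus held both the lowest and the highest library. The KD mean was 3.04 ± 2.97 CPM (SD, n = 3) and the CD mean 2.10 ± 0.768 CPM (SD, n = 4). The fitted log2 fold change was 0.52 (standard error 0.61, 95% interval -0.88 to 1.92), with an adjusted p of 0.979 (edgeR, quasi-likelihood) and p = 0.886 in the exact permutation test. Without KD replicate 3 it was -0.62, and by limma-voom over all libraries -0.020, so no direction can be given. Ntf3 was higher in the 3 libraries low in Xist (2.38 to 6.42 CPM) than in the 4 others (0.823 to 1.88 CPM). The part of sex, of dissection and of the marker genes described further on in that split was not tested.

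Ntrk2 spans 58806569 to 59133970 on the plus strand of chromosome 13 and was the steadiest of the 6 genes. It had 623, 669, 691 and 642 CPM in CD replicates 1 to 4, and 695, 703 and 653 CPM in KD replicates 1 to 3. KD replicates 1 and 2 were just above the highest CD library, and KD replicate 3 was inside the CD range. The coefficient of variation over the 7 libraries was 4.48%, and 2.87% of the tested genes had a smaller one. KD exceeded CD by 0.069 on the log2 scale (standard error 0.084), and the 95% interval from -0.12 to 0.26, or 0.918-fold to 1.20-fold, was the narrowest of the 6. The adjusted p was 0.982 (edgeR, quasi-likelihood), and p was 0.257 in the exact permutation test. GENCODE M21 lists 7 protein-coding Ntrk2 transcripts with coding lengths from 1398 to 2463 bases. The shorter ones include truncated receptors without the kinase, and a count per gene sums them with the full-length form. A change in the balance of the 2 forms would therefore not be visible here.

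Ntrk3, on the minus strand of chromosome 7 from 78175959 to 78738012, had 101, 92.7, 129.5 and 119 CPM in CD replicates 1 to 4. In KD replicates 1 to 3 it had 122, 94.95 and 131 CPM. Low and high libraries occurred in both diets. Its log2 fold change of 0.076 (standard error 0.14, 95% interval -0.24 to 0.39) had an adjusted p of 0.983 (edgeR, quasi-likelihood) and p = 0.714 in the exact permutation test. Without KD replicate 3 it was -0.00496. The coding transcripts of Ntrk3 are also a mixture, with and without the kinase, that 1 count per gene does not resolve.

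**Figure D2:**
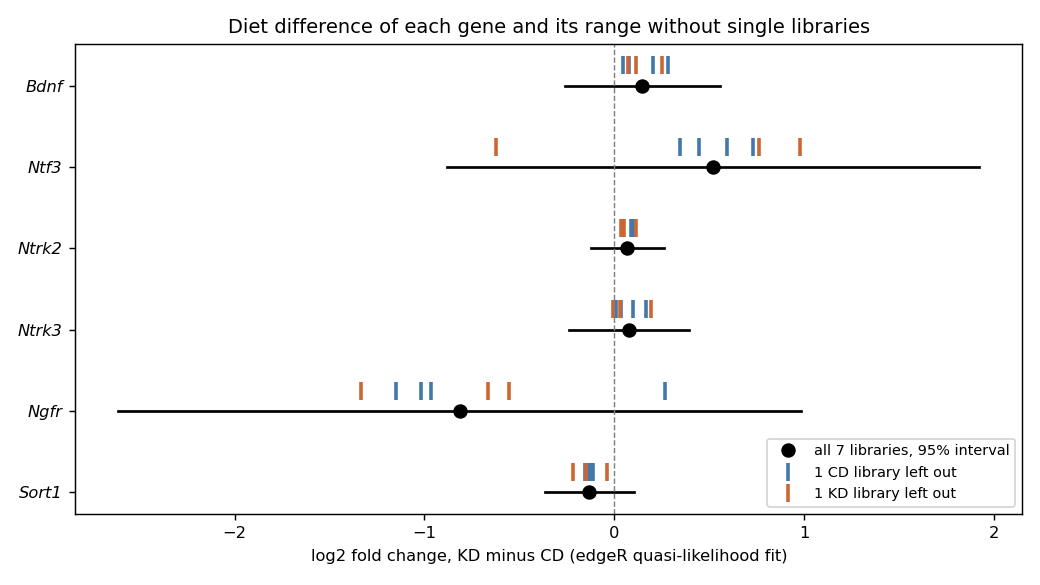
Log2 fold change of each gene, KD minus CD, from edgeR's quasi-likelihood fit over all 7 libraries (black point, with the 95% interval as a line), and above it the value when 1 CD library (blue tick) or 1 KD library (orange tick) was left out. Every interval contains 0, and Ntf3, Ngfr and, by less than 0.01, Ntrk3 change sign when 1 library is left out.

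Ngfr, the p75 receptor, lies on the minus strand of chromosome 11 from 95568818 to 95587735 and has 1 annotated transcript. It was the least abundant of the 6 per kilobase. In CD it had 1.57, 1.24, 0.488 and 6.25 CPM in replicates 1 to 4, and in KD 1.03, 0.823 and 2.20 CPM in replicates 1 to 3. CD held both the lowest library (16 counts) and the highest (229 counts). The KD mean was 1.35 ± 0.743 CPM (SD, n = 3) and the CD mean 2.39 ± 2.62 CPM (SD, n = 4). The fitted log2 fold change of -0.81 (standard error 0.79, 95% interval -2.61 to 0.99) had an adjusted p of 0.979 (edgeR, quasi-likelihood) and p = 0.714 in the exact permutation test. Without CD replicate 4 it was 0.27, so the lower fitted level in KD rested on that library.

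Sort1, on the plus strand of chromosome 3 from 108284082 to 108361511, encodes sortilin, which also sorts BDNF within neurons and binds progranulin. It had 895, 955, 941 and 999 CPM in CD replicates 1 to 4, and 874, 944 and 756 CPM in KD replicates 1 to 3. KD replicates 1 and 3 were below every CD library, and KD replicate 2 was inside the CD range. The KD mean was 858 ± 94.99 CPM (SD, n = 3) and the CD mean 948 ± 42.8 CPM (SD, n = 4). Its log2 fold change of -0.13 (standard error 0.10, 95% interval -0.36 to 0.10) had an adjusted p of 0.979 (edgeR, quasi-likelihood) and p = 0.171 in the exact permutation test. Without KD replicate 3 it was -0.038. The antisense gene Gm12523 shares 338 bases of exon with Sort1.

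Ngfr is made in cortex by few cells and is a marker of basal forebrain cholinergic neurons, glia of peripheral and olfactory nerves and some cells of the meninges and vessel walls. In bulk tissue, fewer cells of a type and less RNA per cell cannot be told apart. The 2 libraries highest in Ngfr, CD replicate 4 and KD replicate 3, were also the 2 highest in the summed level of the 7 meningeal fibroblast markers, at 311 and 142 CPM against 41.2 to 79.1 CPM in the other 5 libraries. They were the highest in the sum of the 5 olfactory bulb markers as well, at 66.7 and 16.5 CPM against 3.72 to 8.91 CPM. In CD replicate 4 all 5 markers were at their highest, whereas in KD replicate 3 Cdhr1 made up 12.9 CPM of the sum, and Eomes (0.404 CPM), Tbx21 (0.135 CPM), Doc2g (2.11 CPM) and Th (0.943 CPM) were within the range of the other 5 libraries. The collagen-binding proteoglycan Dcn was at 126 CPM in CD replicate 4 and 73.7 CPM in KD replicate 3, against 10.6 to 23.4 CPM elsewhere. It was the larger part of the meningeal sum in KD replicate 3, where Col1a2 (14.7 CPM) was below its level in CD replicate 3 (17.9 CPM). The remaining meningeal markers were all higher in KD replicate 3 than in the other 5 libraries. Slc6a13 was at 22.45 CPM (at most 17.11 in those 5) and Aldh1a2 at 12.53 CPM (7.96). Foxc1 was at 10.73 CPM (8.08), Lum at 4.67 CPM (3.63) and Col1a1 at 3.05 CPM (2.47). The cholinergic list summed to 2.64 to 7.81 CPM and was highest in CD replicate 4, where Zic4 made up 6.04 CPM. The list genes Slc5a7 (0.903 to 2.59 CPM), Chat (0.180 to 0.885 CPM) and Slc18a3 (0 to 0.385 CPM) were low. KD replicate 3 was lowest in Chat and Slc18a3 but highest in Isl1, Lhx8 and Gbx2. Isl1 was at 1.21 CPM there (27 counts), against 0 to 0.234 CPM elsewhere. Lhx8 was at 0.314 CPM (7 counts), against 0 to 0.0669 CPM, and Gbx2 had 4 counts. In CD replicate 4 Slc5a7 (1.15 CPM) and Chat (0.246 CPM) were within the range of the other libraries. The list of olfactory ensheathing and Schwann cells summed to 25.4 to 44.05 CPM and was lowest in KD replicate 3 and next lowest in CD replicate 4. Only 2 of its 6 genes passed the filter on low counts. Pmp2 or Foxd3 was at 0 counts in 6 of the 7 libraries. In CD replicate 4, the library highest in Ngfr, no gene of the list was at 0, and 2 had at most 3 counts. The part of these cells in the level of Ngfr was not tested.

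Ntf3 is made in the adult brain mainly in hippocampus and in parts of medial cortex. Its 2 highest libraries, KD replicate 3 and CD replicate 4, had a summed level of 167 and 202 CPM over the 8 hippocampal markers, against 54.8 to 77.1 CPM in the other 5 libraries. Most of that sum came from Wfs1, a gene of hippocampal field CA1 that other forebrain regions also express, at 117 and 151 CPM against 30.7 to 44.4 CPM. Of the other list genes, C1ql2 (3.59 CPM in KD replicate 3 and 4.04 CPM in CD replicate 4, against 0.366 to 1.82 CPM), Spink8 (6.91 and 4.40 CPM, against 0.676 to 2.62 CPM) and Amigo2 (22.3 and 14.6 CPM, against 5.50 to 13.9 CPM) were also highest in these libraries. Prox1, the transcription factor of dentate granule cells, was not, at 5.70 CPM in KD replicate 3 and 9.15 CPM in CD replicate 4 against 6.17 to 11.2 CPM. Dsp, Fibcd1 and Lct were highest in CD replicate 4, at 4.32, 12.0 and 1.72 CPM. In KD replicate 3 they were at 1.71, 9.02 and 1.48 CPM. That was within the range of the other 5 libraries (0.294 to 3.81, 5.43 to 9.46 and 1.31 to 1.71 CPM). The part of tissue from outside the cortex in the level of Ntf3 was not tested.

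With both CD replicate 4 and KD replicate 3 left out, an alternative chosen after the data were seen, none of the 6 genes had a raw p-value under 0.05. The log2 fold change was then 0.051 for Bdnf, -0.42 for Ntf3, 0.091 for Ntrk2, 0.020 for Ntrk3, -0.25 for Ngfr and -0.023 for Sort1.

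**Figure D3:**
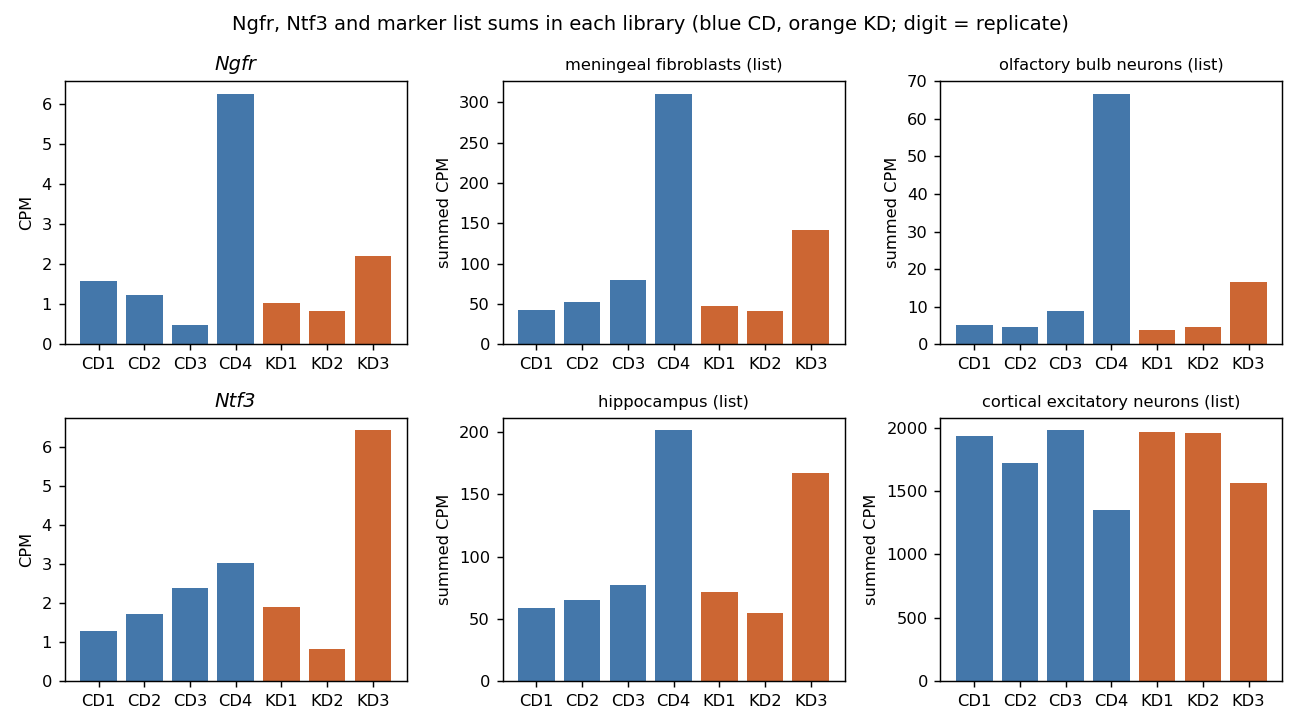
Ngfr and Ntf3 (CPM) beside the summed CPM of 4 marker lists in each library, with CD in blue, KD in orange, replicate numbers on the x axis and linear y axes from 0. CD replicate 4 and KD replicate 3 are the 2 highest libraries for Ngfr, for Ntf3 and for the meningeal, olfactory bulb and hippocampal sums, and the 2 lowest for the cortical excitatory neuron sum.

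The rest of the neurotrophin pathway was described with a list of 106 other genes grouped by role, of which 101 were tested. Of these 52 had a higher and 49 a lower fitted level in KD, with a median log2 fold change of 0.0076, where all tested genes had a median of -0.00329. With scaling by library size alone 49 of the 101 were higher and the median was -0.00244, and without KD replicate 1 it was -0.00185. At a raw p-value under 0.05, 1 list gene was higher in KD and 0 were lower, where 1.66% of all tested genes were higher and 1.52% lower. None passed after adjustment over all tested genes.

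Among the other ligands, neurotrophin-4 (Ntf5) had 0 to 6 counts per library. It did not pass the filter, and no fold is given for it. Of the other receptors and co-receptors, such as the sortilin relatives Sorcs1 and Sorl1, 7 were tested, of which 3 had a higher and 4 a lower level in KD and none a raw p under 0.05. Their median of -0.0335 was 0.0123 without KD replicate 3.

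The gene at a raw p-value under 0.05 was Nras, a small GTPase that couples receptor tyrosine kinases to the ERK cascade. It had 79.9, 75.7, 79.5 and 69.3 CPM in CD replicates 1 to 4 and 85.7, 87.1 and 87.6 CPM in KD replicates 1 to 3. Every KD library lay above every CD library, and over all tested genes 4.2% had diet ranges that did not overlap. Its log2 fold change of 0.20 (standard error 0.085) had a raw p of 0.0459 and an adjusted p of 0.979 (edgeR, quasi-likelihood), so it did not pass the correction. The raw p was no longer under 0.05 without CD replicate 2, without CD replicate 4 or without any 1 of the KD libraries. Nor was it under 0.05 by the likelihood-ratio test, with the Xist covariate, with the replicate block or with the filter of at least 1 count. Of the 20 tested genes of the Ras–ERK–CREB cascade 13 had a higher and 7 a lower level in KD, and the median was 0.041. Without KD replicate 3 it was -0.0127, with 9 of 20 higher. The 22 Trk adaptors, among them the Shc and Frs2 proteins that bind activated Trk receptors, had a median of -0.00124, with 10 higher and 12 lower, and without CD replicate 4 it was 0.026. The PI3K–Akt genes had a median of -0.10 (2 higher and 7 lower of 9), which was 0.0094 with 5 of 9 higher without KD replicate 3 and -0.0196 without CD replicate 1. The effectors of p75 had a median of 0.00796 (6 higher and 5 lower of 11), which was -0.00063 with scaling by library size alone and -0.00777 without KD replicate 3.

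The 13 tested genes of ligand processing and sorting, which include the proprotein convertases Furin and Pcsk1 that cut proneurotrophins, had 5 higher and 8 lower in KD and a median of -0.040. The median was 0.050 without CD replicate 4 and 0.070 without KD replicate 1, each with 7 of 13 higher. Hap1, a huntingtin partner that takes part in the transport of BDNF, had the largest log2 fold change of the list, 1.51 (standard error 0.70, raw p of 0.0626 by edgeR), and was picked out after its values were seen. It had 414 CPM in KD replicate 3 and 42.5 to 71.4 CPM in the other 6 libraries, so this value came from 1 library.

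**Figure D4:**
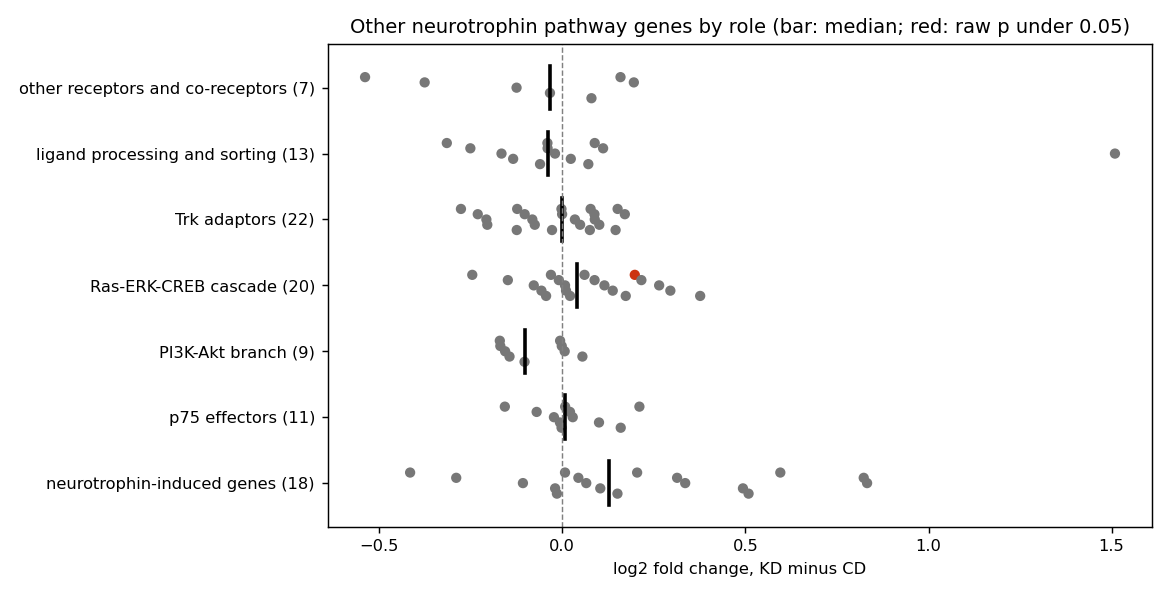
Log2 fold change, KD minus CD, of 100 tested pathway genes other than the 6 members, 1 point per gene, grouped by role (roles with at least 2 tested genes) with the number tested in brackets, a black bar at the median of each group and red for a raw p-value under 0.05. The group medians lie between -0.10 and 0.13, Hap1 is the point at 1.51 and Nras is the red point at 0.20.

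The group with the highest median was that of genes induced by neurotrophins and neuronal activity, many of them immediate early genes that are switched on with Bdnf. Of its 18 genes 13 had a higher and 5 a lower level in KD, and the median log2 fold change was 0.13, where 49% of all tested genes were higher. None had a raw p-value under 0.05, and the median depended on single libraries. Without KD replicate 2 it was -0.00392 with 9 of 18 genes higher, and without CD replicate 2 it was 0.36 with 15 of 18 higher and 4 genes (Egr2, Fos, Npas4 and Nr4a1) at a raw p under 0.05. Npas4, a transcription factor that acts on Bdnf, was picked out after its values were seen. It had 6.47, 7.46, 3.05 and 2.73 CPM in CD replicates 1 to 4 and 8.85, 10.8 and 6.56 CPM in KD replicates 1 to 3, with a log2 fold change of 0.83 (standard error 0.39, raw p of 0.0634 by edgeR). Its adjusted p was 0.979 (edgeR, quasi-likelihood), and KD replicate 3 lay inside the CD range. The raw p was under 0.05 by the likelihood-ratio test, DESeq2 and limma-voom, with the replicate block, with the Xist covariate and without CD replicate 2. It was not under 0.05 with any other scaling or filter or without any other single library. Nor was it with both CD replicate 4 and KD replicate 3 left out. The synaptic protein gene Arc had 116, 189, 74.0 and 52.9 CPM in CD and 165, 257 and 63.9 CPM in KD. For Arc the highest libraries were KD replicate 2 and CD replicate 2, which were also high in Bdnf, whereas KD replicate 3 was high in Bdnf (55.5 CPM) and low in Arc.

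**Figure D5:**
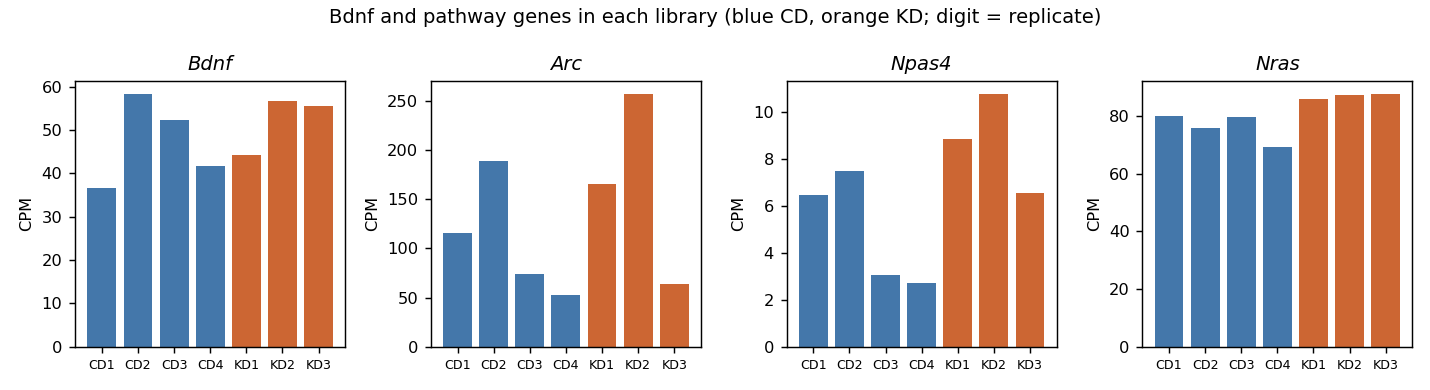
CPM of Bdnf, of the activity-induced genes Arc and Npas4 and of Nras in each library, with CD in blue, KD in orange, replicate numbers on the x axis and linear y axes from 0. KD replicate 2 and CD replicate 2 are the 2 highest libraries for Bdnf and for Arc. For Nras every KD library is above every CD library (4.2% of all tested genes have diet ranges that do not overlap).

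Genes whose pattern over the 7 libraries was most like that of each member were found by Pearson's r of log2 CPM among tested genes with a mean log2 CPM of at least 3. For Bdnf these were Fam76b (r = 0.986), Dctn5 (0.97) and Rsl1d1 (0.969), and for Ntf3 Ccrn4l (0.987), Dennd1a (0.984) and Fstl5 (0.982). For Ntrk2 they were Spata5 (0.981), Pias2 (0.976) and Cntln (0.963), and for Ntrk3 Celf2 (0.979), Cdc73 (0.971) and Itgbl1 (0.958). For Ngfr they were Pramef8 (0.986), Heph (0.968) and Wasf3 (0.967), and for Sort1 Slc37a4 (0.962), 4933426M11Rik (0.959) and Epha4 (0.957). These coefficients describe 7 libraries that share depth and tissue makeup, and each gene named is among the closest of 10467 or 10468 searched.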

How the data were processed

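Each of the 7 libraries came from 1 mouse. Per the labels and the methods of the study, 300 ng of total RNA was made into stranded libraries, read in 50-bp pairs, aligned to mm10 with STAR and counted per gene. The values the authors deposited are raw read counts per gene symbol, without normalization. Neither versions of the tools nor the annotation or strand setting used for counting are given in the sources used here. Replicates of a diet differed by far more than sampling noise (the chi-square per gene ran from 16.1 to 68.3, and sampling noise alone gives 1).

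KD was compared with CD in edgeR 4.0.16 (R 4.3.3): low genes were removed with filterByExpr, libraries scaled by TMM, and a quasi-likelihood model fitted (estimateDisp, then robust glmQLFit) and tested (glmQLFTest) without covariates, adjusting p by Benjamini-Hochberg over all 15881 tested genes. The study names edgeR, TMM and a raw threshold of 0.01, so the exact test and filter are choices made here. CPM in the text are counts per 1000000 of the library total, without TMM. Standard errors are the absolute log2 fold change divided by the square root of F. Single genes were also compared by an exact two-sided permutation test of log2(CPM + 0.5). Gene lengths and positions are from GENCODE M21. The procedure was tested on simulated data. Alternatives were RLE, upper-quartile and library-size scaling, 2 other filters, the likelihood-ratio test, DESeq2 1.42.0, limma-voom (limma 3.58.1), a replicate block, Xist as a covariate and leaving out libraries.

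Named genes were the 6 members, pathway genes with a raw p under 0.05, the other ligands and receptors, the 3 genes most like each member in pattern, and markers where a sum is given. Some genes that the rule names are not reported here. The members and all gene lists were chosen with earlier results of these data known. The table lists 104 of the 106 pathway genes under the symbols used. Of the marker lists, those not described in the report summed to 406 to 884 CPM (upper layers), 268 to 431 (deep layers), 370 to 613 (parvalbumin interneurons), 4365 to 6823 (astrocytes), 1070 to 4159 (oligodendrocytes), 108 to 168 (their precursors), 410 to 732 (microglia), 229 to 404 (endothelium and pericytes) and 10.6 to 455 (choroid plexus).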

Additional observations from a re-analysis of the deposited data

Results flagged for a closer look

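Among the 4 CD libraries, 23 values (the 6 members, Nras and the summed marker lists) were checked for a single distant library: the distance of the end value to its neighbour was divided by the whole range and set against 0.829, the critical value of Dixon for 4 samples. Chance flags about 1 in 20 such groups, 5 passed, and the values share libraries. None of the 6 members passed, and Ngfr came nearest, with 6.25 CPM in CD replicate 4 and a quotient of 0.813.

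CD replicate 4 stood apart in the meningeal fibroblast list (311 CPM, where the rest of CD had 42.6 to 79.1, a quotient of 0.864), in the olfactory bulb list (66.7 CPM against 4.65 to 8.91, 0.931), in the hippocampal list (202 CPM against 58.7 to 77.1, 0.872) and in the list of oligodendrocyte precursors (168 CPM against 108 to 117, 0.853). CD replicate 1 stood apart in the choroid plexus list (455 CPM against 10.6 to 71.9, 0.862).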

How the results depend on the processing

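None of the 6 genes had a raw p under 0.05 in the main fit or in any of the 18 alternatives. The labels do not say that the replicate numbers pair the mice. The correlation of deviations between libraries of the same number was 0.251, 0.195 and 0.098, not above 0.1 for every pair. These 3 values cannot decide whether the mice were paired. The fit with a replicate block over numbers 1 to 3 also leaves out CD replicate 4, which has no partner. In it the log2 fold change of Ngfr was 0.26, as against 0.27 without CD replicate 4 and no block, 182 genes reached the raw threshold of 0.01 (33 without CD replicate 4 and no block) and 8 pathway genes a raw p under 0.05 (2 without CD replicate 4 and no block). The log2 fold change of Ntf3 was -0.020 with limma-voom and -0.42 with both CD replicate 4 and KD replicate 3 left out, the added alternative, which gave 3 pathway genes. Leaving out 1 replicate moved the log2 fold change from 0.043 to 0.28 for Bdnf, -0.62 to 0.98 for Ntf3, 0.037 to 0.11 for Ntrk2, -0.00496 to 0.19 for Ntrk3, -1.33 to 0.27 for Ngfr and -0.22 to -0.038 for Sort1. The count at the raw threshold of 0.01 then lay between 19 (CD replicate 1 left out) and 211 (CD replicate 3 left out), against 51, and the pathway genes from 1 to 5 (without CD replicate 2), against 1. The likelihood-ratio test put 103 genes at that raw threshold, DESeq2 120 and the Xist covariate 227. Pathway genes at a raw p under 0.05 numbered 2 by the likelihood-ratio test, 2 by DESeq2, 2 by limma-voom, 7 under the Xist covariate and 0 under the filter of at least 1 count. The likelihood-ratio test and the Xist covariate gave 1 gene each with an adjusted p under 0.05, and neither was a member. With the longest transcript as length the levels were 133 CPM per kb for Sort1, 76.4 for Ntrk2, 11.6 for Bdnf and 5.73 for Ntrk3, in the same order. The other causes were not tested. Ntf3 and Ngfr had fewer than 30 counts in at least 1 library, and their wide intervals limit what can be said of them.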
